A study of Caenorhabditis elegans with 2 samples.

Results

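The 45 genes described here encode the enzymes of glycolysis (19 genes), gluconeogenesis (4 genes) and the tricarboxylic acid (TCA) cycle (20 genes), together with the glyoxylate enzyme gene icl-1 and the alcohol dehydrogenase gene adh-1. They were listed by pathway from the 19973 protein-coding genes of Caenorhabditis elegans, with earlier results of these data known. All 45 symbols matched the Ensembl annotation of assembly WBcel235. A gene was called bound by MXL-3 where a peak summit fell in a window running from 1000 bp before to 200 bp after the start of any of its protein-coding transcripts, provided that the peak was in the authors' list thresholded on the irreproducible discovery rate (IDR). The profiles came from chromatin immunoprecipitation sequencing of whole animals at the L4 larval stage (48 hours, both sexes mixed), in 2 biological replicates of 1 group. Larvae of strain OP745 carried the integrated transgene wgIs745, which joins mxl-3 to TY1, EGFP and 3xFLAG tags and holds an unc-119(+) rescue marker, in an unc-119 (tm4063) background. The genotype lists no loss of the endogenous mxl-3 gene, so the tagged protein was present in addition to it, and the cells that express the transgene are not given. One label field names mxl-3 as the antibody target and another an anti-GFP antibody. No second condition was compared, and a peak list cannot show whether the labelled stage or tissue carries its markers. All cells of the larva were mixed, so a weak peak in many cells and a strong one in few cannot be told apart.

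MXL-3 is a basic helix-loop-helix leucine zipper protein of the Max family, whose members bind E-boxes, above all the palindrome CACGTG. In well-fed worms it is known to repress lysosomal lipase genes, opposite to the starvation factor HLH-30. Glycolysis splits glucose into pyruvate in the cytosol, gluconeogenesis runs back to glucose through its own enzymes at the irreversible steps, and the TCA cycle oxidises acetyl groups in mitochondria. The glyoxylate shunt lets worms build sugar from fat.

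MXL-3 peaks stood at the promoters of most TCA cycle genes and of few glycolytic genes. Of the 45 genes 20 were bound (44.4%, exact 95% interval 29.6 to 60.0%), against 11.3% of all protein-coding genes. The TCA cycle had 14 bound of 20 (70.0%, 45.7 to 88.1%), glycolysis 3 of 19 (15.8%, 3.38 to 39.6%) and gluconeogenesis 2 of 4 (interval 6.76 to 93.2%). The TCA cycle set as listed includes the cytosolic aconitase gene aco-1 and the NADP-dependent isocitrate dehydrogenase genes idh-1 and idh-2, all bound. The gene adh-1 carried the strongest peak of the 45, and icl-1 had none in its window. Intervals are Clopper-Pearson intervals that treat genes as independent and cover counting error only. They do not cover the choice of genes, which was made with earlier results of these data known. The share of glycolytic genes was near that of all genes. Genes with several annotated starts have a longer window and were bound more often (17.6% of all genes with 2 to 4 starts). Of the 27 members with 1 start 10 were bound, against 8.61% of all genes with 1 start. These 10 were TCA cycle genes and adh-1. Every bound gene of glycolysis and gluconeogenesis had several starts, and none of their genes with 1 start was bound. The part played by window length was not tested.

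**Figure D1:**
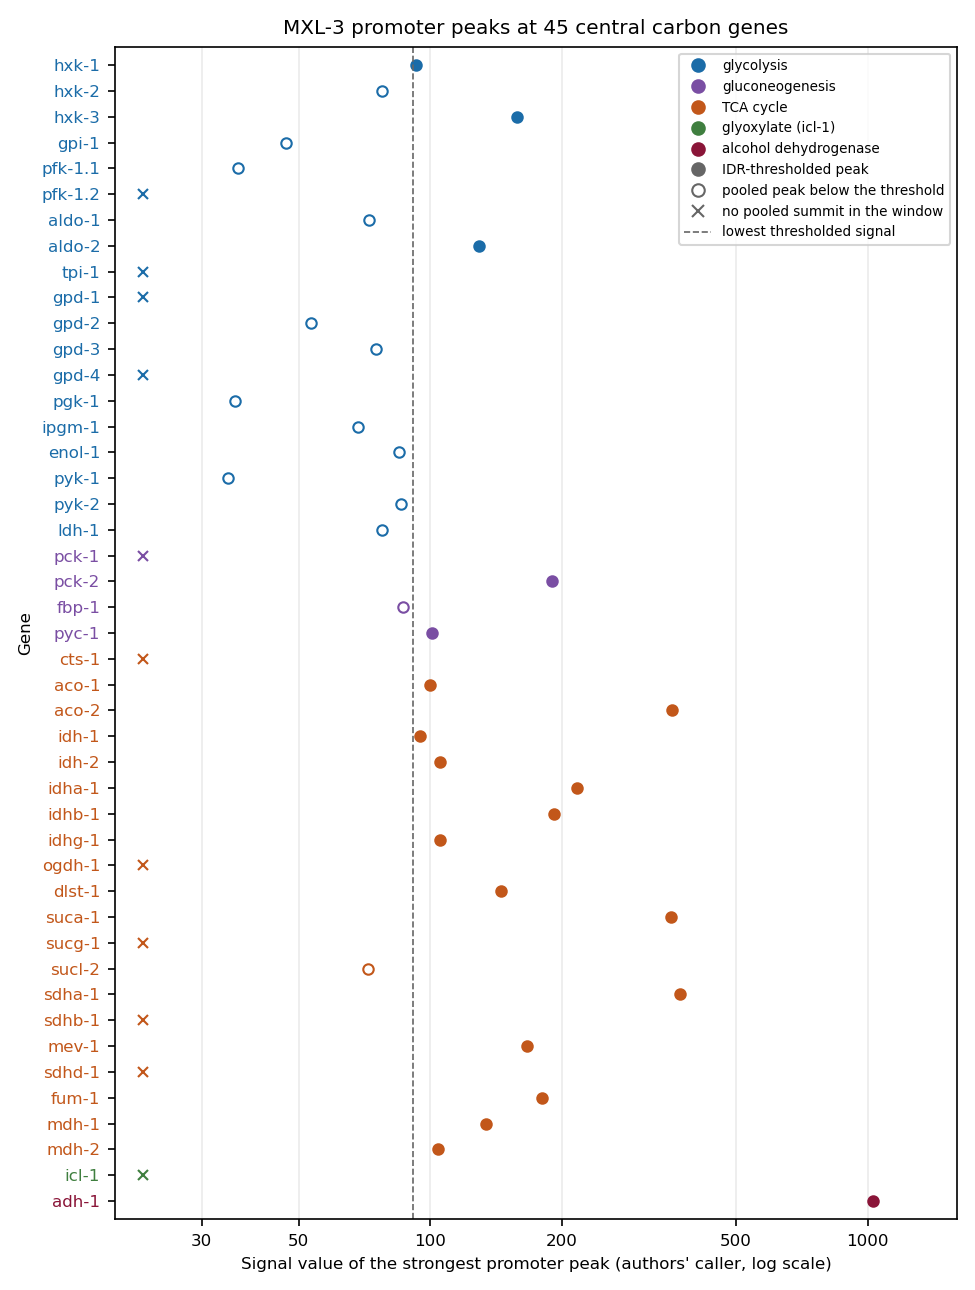
Signal value of the strongest promoter peak of each of the 45 genes, on a log axis, in order of pathway. Filled points are peaks that passed the IDR threshold, open points pooled peaks below it and crosses genes with no pooled summit in the window, and the dashed line is the lowest thresholded signal, 91.1. The 14 filled TCA cycle points run from 94.8 to 373, glycolysis has 3 filled points between 93.0 and 158, and adh-1 stands apart at 1028.

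Each value below is the signal value of the authors' peak caller, which ranks the peaks of its own list and whose scale is not defined. It ran from 91.1 to 1445 over the 3935 thresholded peaks, which were the highest 3935 of the 30000 pooled peaks, and each replicate list also held 30000 peaks with background included. The strongest promoter signal of the 20 bound members had a median of 151, against 144 for all 2255 bound genes. The share of members bound thus lay above that of all genes, while the median height of their peaks was close to that of all bound genes.

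The 3 bound glycolytic genes encode hexokinases and an aldolase, and their share of 15.8% was near the 11.3% of all genes. The hexokinase gene hxk-2 and the aldolase gene aldo-1 were not bound. The hexokinase gene hxk-3, which encodes an enzyme that traps glucose as its phosphate, had a pooled signal of 158 (rank 1576) at +59 bp in its 5' UTR on chromosome IV (summit IV:1497685). Its peak had a signal of 56.7 in replicate 1 and 103 in replicate 2. A second hexokinase gene, hxk-1, had its summit in an intron at -905 bp from its nearest start on chromosome I (I:9274699), with a pooled signal of 93.0 just above the lowest thresholded value. The hxk-1 signal was 35.5 (rank 5257) in replicate 1 and 63.6 (rank 2999) in replicate 2. A stronger thresholded peak of 192 (rank 1080) stood in an intron of hxk-1 outside the window, at -1631 bp. The aldolase gene aldo-2, whose product splits fructose bisphosphate, had a pooled signal of 129 at +96 bp in its 5' UTR on chromosome III (III:5876374), with 61.8 in replicate 1 and 69.8 in replicate 2. Both hxk-1 and aldo-2 were reached only through a downstream start: with the most upstream start of each gene alone, hxk-3 was the 1 glycolytic gene still bound.

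Below the threshold most other glycolytic windows held pooled summits. The pooled list includes background, so these summits are described and not read as binding. Of the 16 glycolytic genes without a thresholded summit 12 had a pooled summit in the window, and over all unbound members 14 of 25 did, against 33.3% of all unbound genes. The strongest were at pyk-2, a pyruvate kinase gene, with a pooled signal of 85.8 (rank 4330) exactly at its start, and at enol-1, the enolase gene, with 84.6 (rank 4425) at -152 bp. The replicate signals were 45.6 in replicate 1 and 42.8 in replicate 2 for pyk-2, and 44.9 and 46.1 for enol-1 in the same order. The hexokinase gene hxk-2 (77.7) and ldh-1, the lactate dehydrogenase gene (77.5), had a matching summit in replicate 2 alone, with signals of 55.1 and 62.2. Each of these 4 genes had a window summit among the highest 3935 peaks of 1 replicate and not of the other.

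Lower pooled signals stood at gpd-3 (75.0) and gpd-2 (53.5), a pair of glyceraldehyde-3-phosphate dehydrogenase genes, at the second aldolase gene aldo-1 (72.4) and at ipgm-1, the phosphoglycerate mutase gene (68.3). The lowest were at gpi-1, the glucose-6-phosphate isomerase gene (46.7), the phosphofructokinase gene pfk-1.1 (36.3), the phosphoglycerate kinase gene pgk-1 (35.7) and pyk-1 (34.4). Within 100 bp, the summits at aldo-1 and gpi-1 had a match in both replicate lists and that at pgk-1 in neither. Those at gpd-3, gpd-2, ipgm-1, pfk-1.1 and pyk-1 had a match in 1 list only. No pooled summit lay in the windows of pfk-1.2, the triosephosphate isomerase gene tpi-1, gpd-1 or gpd-4. In the windows of the 4 gpd genes between 6.84 and 38.2% of 32-base words occur more than once in the genome, so peaks at these near-identical copies are uncertain. Around the 20 bound summits no such word was repeated, also at pck-2, whose window holds 40.2% of them.

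Some glycolytic and gluconeogenic genes had thresholded peaks just beyond the window. The pyruvate kinase gene pyk-1 had one at +265 bp in an intron (signal 166) and one at -1080 bp (132). The nearest for pck-1, a phosphoenolpyruvate carboxykinase gene, stood at -1016 bp (116), and for fbp-1, the fructose-1,6-bisphosphatase gene, at -1502 bp (151). At gpd-4 a summit lay at -1668 bp (125), within the promoter window of daf-19.

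Gluconeogenesis was bound at pck-2 and pyc-1. The gene pck-2 encodes the other phosphoenolpyruvate carboxykinase among the members. It had a pooled signal of 190 (rank 1100) at +35 bp in a 5' UTR, with 108 in replicate 1 and 83.7 in replicate 2. A second thresholded peak stood in an intron of pck-2 at +627 bp (177). The pyruvate carboxylase gene pyc-1, whose product makes oxaloacetate from pyruvate, had 101 (rank 3321) at -146 bp, with 38.0 (rank 4634) in replicate 1 and 70.4 (rank 2500) in replicate 2. The highest unbound member of all 45 was fbp-1, with a pooled signal of 86.6 (rank 4271) at -211 bp, 44.7 in replicate 1 and 39.9 in replicate 2. No pooled summit lay in the window of pck-1.

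Along the TCA cycle, peaks stood at every member gene of aconitase (2 of 2), NADP-dependent isocitrate dehydrogenase (2 of 2), NAD-dependent isocitrate dehydrogenase (3 of 3), fumarase (1 of 1) and malate dehydrogenase (2 of 2). Complexes further round were bound in part: 1 of 2 genes of the oxoglutarate dehydrogenase complex, 1 of 3 of succinyl-CoA ligase and 2 of 4 of succinate dehydrogenase. Citrate synthase, the entry enzyme, was not bound. The strongest peaks were at sdha-1, which encodes the flavoprotein subunit of succinate dehydrogenase, at aco-2, the mitochondrial aconitase gene, and at suca-1, which encodes a beta subunit of succinyl-CoA ligase. Their summits and surroundings are shown because they carry the highest TCA cycle signals and none of the 3 has CACGTG within 100 bp of the summit. The lines give the strand of the gene, 5' to 3', with the summit base in capitals, from the RefSeq sequence of WBcel235 (sdha-1 at X:8546206-8546306 on the minus strand, aco-2 at III:7973395-7973455 on the plus strand, suca-1 at X:10900453-10900553 on the minus strand).
sdha-1: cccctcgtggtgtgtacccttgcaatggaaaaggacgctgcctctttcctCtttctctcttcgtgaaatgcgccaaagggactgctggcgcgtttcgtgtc
aco-2: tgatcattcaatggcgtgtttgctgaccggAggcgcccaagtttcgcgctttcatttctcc
suca-1: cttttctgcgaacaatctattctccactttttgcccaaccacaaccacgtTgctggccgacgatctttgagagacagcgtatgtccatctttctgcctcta

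The sdha-1 peak had a pooled signal of 373 (rank 256) at -235 bp, with 129 in replicate 1 and 235 in replicate 2. Its summit fell in an annotated exon outside coding sequence and UTRs. At aco-2 the signal was 356 (rank 294) at -292 bp, with 157 in replicate 1 and 196 in replicate 2, also in an exon outside coding sequence and UTRs. The nearest start to that summit was not that of aco-2 but that of eef-1B.1, a translation elongation factor gene, at -39 bp. The suca-1 signal was 355 (rank 295) at -389 bp, with 194 in replicate 1 and 162 in replicate 2, and a stronger thresholded peak of 468 stood outside the window at -1078 bp. All 3 ranked 488 or higher in each replicate.

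The 3 subunit genes of NAD-dependent isocitrate dehydrogenase, a rate-setting enzyme of the cycle, were bound at different heights. The alpha subunit gene idha-1 had a pooled signal of 216 at -323 bp (77.2 in replicate 1, 137 in replicate 2). At the beta subunit gene idhb-1 it was 192 at +11 bp in the 5' UTR (78.0 and 115). The gamma subunit gene idhg-1 had 105 at -45 bp (51.4 and 54.4). The order was the same in replicate 2, while in replicate 1 idha-1 and idhb-1 differed by less than 1. The genes of the NADP-dependent enzymes, which make NADPH for biosynthesis, were near the threshold. At idh-2 the pooled signal was 105 at -281 bp (56.2 and 51.7), and idh-1 had 94.8 at -68 bp, with a stronger thresholded peak of 355, which has CACGTG near its summit, outside the window at -1247 bp.

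The fumarase gene and both listed malate dehydrogenase genes were bound too. The gene fum-1 had a pooled signal of 180 at -21 bp (82.9 in replicate 1, 91.2 in replicate 2). At mdh-1 the signal was 134 at -832 bp (51.3 and 83.4), the farthest TCA summit from a start, and at mdh-2 it was 104 at -217 bp (40.7 and 65.4). Of the remaining bound genes, mev-1, which encodes the cytochrome b subunit of succinate dehydrogenase, had 166 at -147 bp (68.9 and 95). The E2 subunit gene of the oxoglutarate dehydrogenase complex, dlst-1, had 145 at -375 bp (55.0 and 91.4). The cytosolic aconitase gene aco-1 had 100 at -210 bp, with 19.5 (rank 18495) in replicate 1 and 70.1 (rank 2516) in replicate 2. A higher summit of replicate 1 in the aco-1 window, with 35.4, stood at -387 bp.

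**Figure D2:**
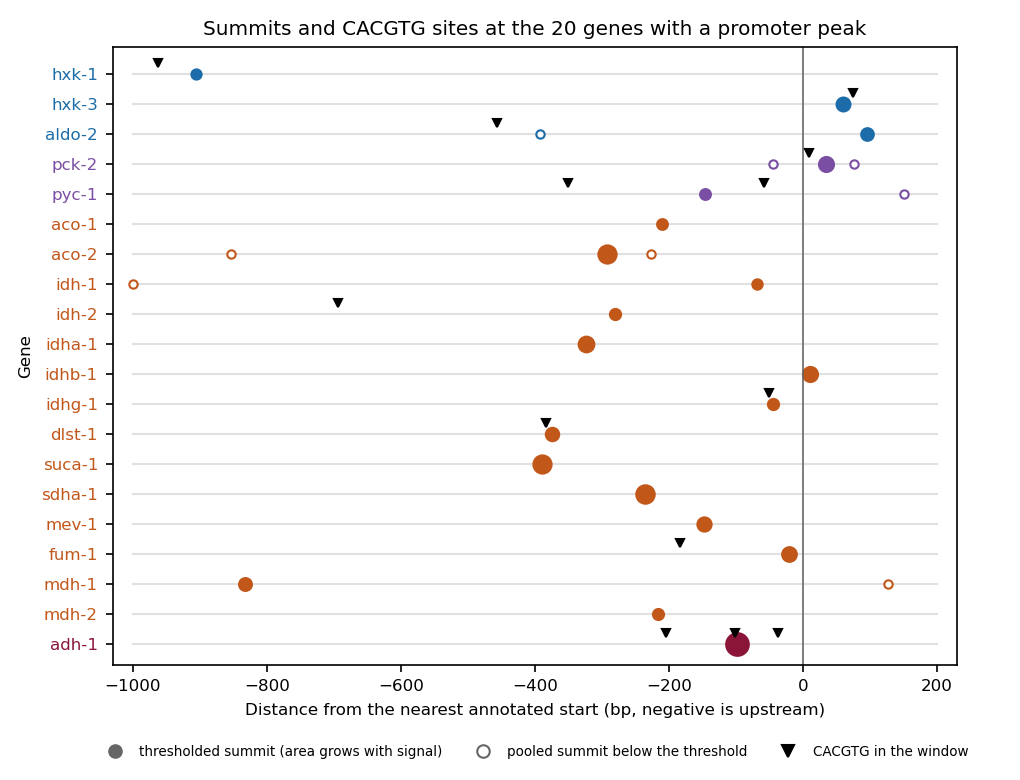
Position of each summit and CACGTG site in base pairs from the nearest start (negative is upstream) at the 20 bound genes, in order of pathway. Filled points are thresholded summits with area growing with the signal, open points pooled summits below the threshold and triangles CACGTG sites. Of the 20 filled points 18 lie within 400 bp of a start, and hxk-1 and mdh-1 lie beyond it.

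Of the 6 unbound TCA cycle genes 1 had a pooled summit below the threshold in its window, and 33.3% of all unbound genes did. It was sucl-2, which encodes the alpha subunit of succinyl-CoA ligase, with 72.2 (rank 5705) at -552 bp. None lay in the windows of cts-1, ogdh-1 (the E1 subunit gene of the oxoglutarate dehydrogenase complex), sucg-1 (a beta subunit of succinyl-CoA ligase), sdhb-1 (the iron-sulphur subunit of succinate dehydrogenase) or sdhd-1 (its other membrane anchor). At ogdh-1 a thresholded peak of 314 stood farther upstream, at -1391 bp. The glyoxylate gene icl-1, which encodes isocitrate lyase with malate synthase, had none either. Its nearest thresholded summit was at -1341 bp (156), and replicate 1 alone had a low summit in the window (18.8, rank 19902).

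Citrate synthase differed between the replicates. Upstream of cts-1 replicate 1 had a summit at -249 bp with a signal of 107 (rank 667), and neither replicate 2 nor the pooled list had a summit in the window. Of the 667 peaks of replicate 1 as high as this or higher, 2 (0.3%) had no pooled summit within 500 bp, and that of cts-1 is 1 of them. The cause was not tested. Among the TCA cycle genes in replicate 1 this signal came after those of suca-1, aco-2 and sdha-1 and before that of fum-1 (82.9).

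Neighbouring genes shared some of these summits. Of the 20 bound members 7 (35%), all in the TCA cycle, had their summit in the window of another protein-coding gene too, against 34.8% of all bound genes. That is 7 of the 14 bound TCA cycle genes and none of the other 6 bound members. For 3 of the 7 the neighbour's start was the nearer one: eef-1B.1 at aco-2, jmjd-4 at mev-1 (-112 bp) and C34F6.7 at idh-2 (-249 bp). The other 4 were nearest to their own start, with lmd-1 at -967 bp from the idha-1 summit, the malonyl-CoA decarboxylase gene mlcd-1 at -622 bp from that of idhg-1, F46E10.3 at -939 bp from that of mdh-1 and F20H11.4 at -299 bp from that of mdh-2. A summit does not show which of the genes it acts on. With each summit given only to its nearest start within 2000 bp, 12 TCA cycle genes kept or gained a peak, 4 glycolytic genes had one, and 12.4% of all genes did.

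Bound TCA cycle genes were spread over the chromosomes, with all 5 of those on X bound, 5 of 7 on III, 2 of 2 on V, 1 of 3 on IV, 0 of 2 on II and the only one on I. The X chromosome had the highest share over all genes too (17.1%, against 8.81% on V), and none of the 3 glycolytic genes on X was bound.

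Summits of members lay close to starts. Their median distance was -178.5 bp, against -247 bp over all bound genes, and 18 of 20 were within 400 bp of a start, against 68.4%. By annotation 12 of the 20 summits were intergenic, against 65.9% over all bound genes, and 4 stood in a 5' UTR, against 8.74%. A further 3 lay in exons outside coding sequence and UTRs, against 9.67% over all bound genes, and 1 in an intron, against 12.3%. Each bound member had a single thresholded summit in its window. The bases within 100 bp of the summits were 46.3% G or C for members and 44.3% for all distinct promoter peaks (medians).

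The alcohol dehydrogenase gene adh-1 had the strongest peak of all members. Its pooled signal of 1028 (rank 12 of 3935) stood at -99 bp in intergenic sequence, with 400 (rank 20) in replicate 1 and 637 (rank 11) in replicate 2. The next member, sdha-1, reached 373. Alcohol dehydrogenases interconvert alcohols and aldehydes, and ADH-1 links ethanol to acetaldehyde outside the cycle. Its promoter is shown because 3 CACGTG sites stand in it, at 105 bp before, 2 bp before and 62 bp after the summit, counted at the third base of the hexamer. The stretch V:11888027-11888229 (WBcel235, RefSeq sequence, plus strand, the strand of the gene) is given 5' to 3' with the 3 sites in capitals.
adh-1: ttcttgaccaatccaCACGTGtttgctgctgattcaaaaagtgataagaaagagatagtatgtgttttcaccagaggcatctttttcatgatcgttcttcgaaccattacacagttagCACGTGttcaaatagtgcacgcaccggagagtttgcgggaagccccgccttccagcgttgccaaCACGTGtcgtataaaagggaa

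A further thresholded peak with CACGTG, of signal 235, lay at -2079 bp from the adh-1 start.

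CACGTG stood near the summit at 6 of the 20 bound members, against 14.7% of all bound genes: adh-1, hxk-3, hxk-1, pyc-1, dlst-1 and idhg-1. The distances from site to summit were 5 bp at idhg-1, 8 bp at dlst-1, 15 bp at hxk-3, 57 bp at hxk-1 and 88 bp at pyc-1. Sequences of 4 of these sites follow, since they show the flanks on which E-box binding proteins differ, and that of ogdh-1 is given as a CACGTG in a member's window with no peak at it. Each is written 5' to 3' on the strand of the gene with CACGTG in capitals, from the RefSeq WBcel235 sequence (dlst-1 at V:6709462-6709507, idhg-1 at III:4568725-4568770, pyc-1 at V:11822565-11822610, hxk-3 at IV:1497686-1497715 and ogdh-1 at IV:4701805-4701834, of which idhg-1 and hxk-3 are on the plus strand and the others on the minus strand).
dlst-1: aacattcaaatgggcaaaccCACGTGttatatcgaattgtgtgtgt
idhg-1: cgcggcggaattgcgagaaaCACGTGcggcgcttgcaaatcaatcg
pyc-1: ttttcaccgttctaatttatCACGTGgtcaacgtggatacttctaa
hxk-3: tcttcaattctgCACGTGcggactgccctt
ogdh-1: gattcgaagctcCACGTGtcaccgagctct

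Across whole promoter windows 12 of the 45 members held CACGTG, against 21.4% of all genes. Of these 12 members 10 were bound, and of the 33 members without it 10 were (30.3%). The same shares over all protein-coding genes were 17.4% with CACGTG and 9.61% without. Longer windows of genes with several starts leave more room for both a site and a summit, and the shares are not adjusted for this. In the TCA cycle 4 of 5 genes with CACGTG and 10 of 15 without were bound, so most bound TCA cycle promoters had none in the window. At 4 bound members the site in the window was not within 100 bp of the thresholded summit. The distance was 162 bp at fum-1, 412 bp at idh-2 and 707 bp at aldo-2. The remaining gene was pck-2, whose site was 2386 bp from the nearest thresholded summit, a different peak outside the window. The unbound pair with a site was gpi-1, with 3 sites, and ogdh-1, with 1.

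Counted by site, 7 of the 17 CACGTG sites in member windows (41.2%) had a thresholded summit within 100 bp, against 6.39% of all distinct sites in promoter windows. Within 100 bp of any pooled summit stood 12 of the 17 (70.6%), against 17.1%. All 3 sites at gpi-1 were near pooled summits of 46.7 and 40.9 below the threshold, and the site at ogdh-1, in coding sequence, was 290 bp from the nearest pooled summit. Sites of 1 gene share a promoter and are not independent.

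The 10 E-box classes (CANNTG, both strands) were searched within 100 bp of each thresholded promoter summit of a member. At least 1 class stood near 14 of the 20 summits (70.0%), against 67.2% of all thresholded peaks. CACGTG was the most frequent in members (6 of 20, against 15.9% of all thresholded peaks), then CAACTG (5, against 12.1%), CAAATG (4, against 15.6%), CAAGTG (3, against 12.1%) and CACCTG (3, against 6.33%). CACATG, the most frequent class over all thresholded peaks (17.3%), stood near 1 member summit, as did CAGATG (8.89% of all). No member summit had CAATTG near it (7.85% of all), and the same held for the classes CAGCTG (5.69% of all) as well as for CATATG (3.07% of all), shares at which few would be found in 20 summits. The 6 summits with no E-box of any class were those of aco-1, aco-2, idh-1, idh-2, suca-1 and mdh-2, all TCA cycle genes. No match says only that these letters are not within this distance.

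Nearly all bound members had a nearby summit in both replicate lists. Thresholded peaks were selected on agreement between the replicates, and each replicate list includes background, so such a match was likely in advance. For 19 of 20 a summit stood within 100 bp in both replicate lists, against 97.4% of all bound genes. The exception was idh-1, with 70.0 (rank 2525) in replicate 2 and the nearest summit of replicate 1 at -187 bp (27.8, rank 8939). Median signals were 61.8 over the 19 matched members and 62.6 over all matched bound genes in replicate 1, and 87.4 over 20 members and 84.6 over all in replicate 2.

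**Figure D3:**
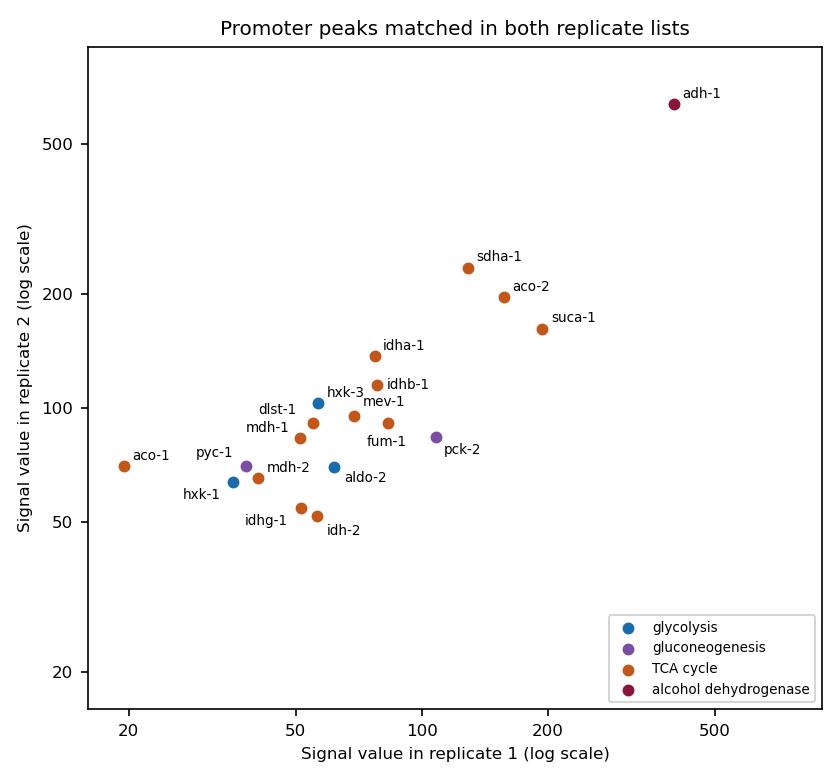
Signal value in replicate 1 (x axis) and replicate 2 (y axis), both log scales, for the 19 bound members with a summit within 100 bp in both replicate lists, coloured by pathway; idh-1 is absent. The gene adh-1 lies highest at 400 and 637, and aco-1 lies far to the left, at 19.5 in replicate 1 and 70.1 in replicate 2.

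A stricter reading asks for a match within 100 bp among the 3935 highest peaks of each replicate. It was met by 14 of the 20 bound members (70.0%), against 74.3% of all bound genes. Of the unbound members 0 had a window summit among the highest peaks of both replicates. The 14 were 10 TCA cycle genes, hxk-3, aldo-2, pck-2 and adh-1. The genes hxk-1, pyc-1, aco-1, idh-1 and mdh-2 fell short in replicate 1 alone and idh-2 in replicate 2 alone.

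The gap between the TCA cycle and glycolysis held in both replicates taken singly. The highest 3935 peaks of replicate 1 reached 12 TCA cycle, 4 glycolytic and 2 gluconeogenic genes, against 10.6% of all genes. Those of replicate 2 reached 13, 5 and 2, against 11.4%. Peaks above the median of the thresholded list reached 8 TCA cycle genes and 1 glycolytic gene, against 5.98% of all genes. The gap was absent over all pooled peaks with background included, which reached 15 of 20 TCA cycle genes and 15 of 19 glycolytic genes, against 40.9% of all genes.

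**Figure D4:**
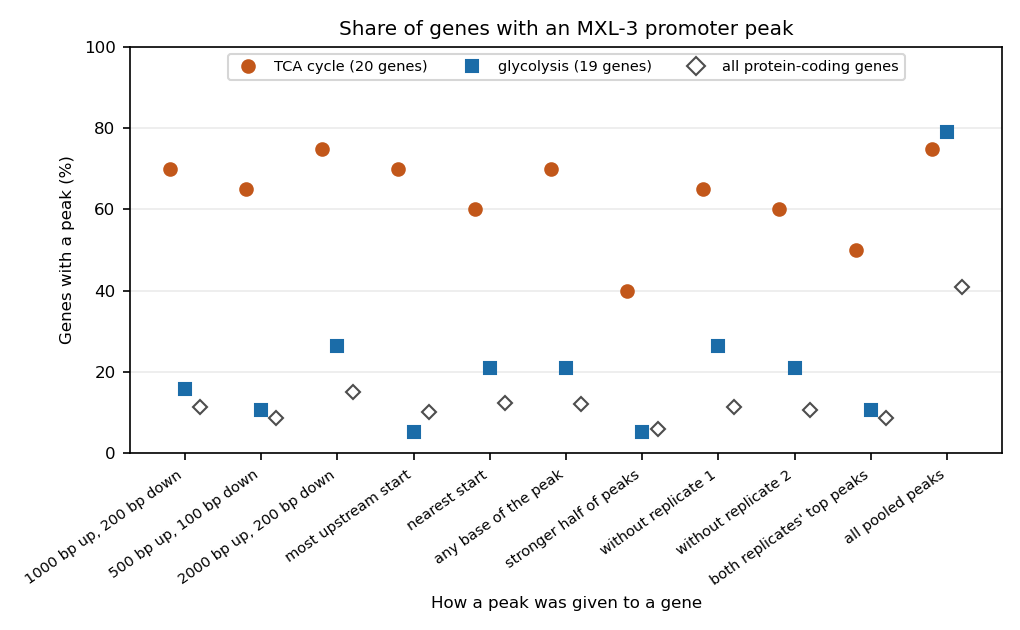
Percent of the 20 TCA cycle genes (circles), the 19 glycolytic genes (squares) and all protein-coding genes (open diamonds) with a peak, for 11 ways of giving peaks to genes, along the x axis. The circles stand above the squares and diamonds in 10 of them, with 8 to 15 TCA cycle genes and 1 to 5 glycolytic genes, and in the last, all pooled peaks with background included, the square is the higher, with 15 of 20 TCA cycle genes and 15 of 19 glycolytic genes.

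Among 33 related genes, which feed these pathways or lead away from them, 8 were bound (24.2%, exact 95% interval 11.1 to 42.3%), against 11.3% of all genes. The strongest was sucl-1, the paralog of the unbound alpha subunit gene sucl-2, with a pooled signal of 1339 (rank 4) at -326 bp, 618 in replicate 1 and 729 in replicate 2, higher than any of the 45 members. Among listed paralogs idhg-2, a gamma subunit gene of isocitrate dehydrogenase, had 244 at -198 bp with CACGTG near its summit. With sucl-1 this makes 2 bound of the 5 listed paralogs, which include an unbound paralog of the gluconeogenic genes pck-1 and pck-2. Of the 33 related genes 16 held CACGTG in the window, against 21.4% of all genes, and 11 of these 16 were unbound.

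Of 8 listed genes of pyruvate entry into the cycle 2 were bound (exact interval 3.19 to 65.1%), against 11.3% of all genes. The pyruvate dehydrogenase kinase gene pdhk-2, whose product switches the complex off, had 285 at -198 bp, and dld-1, the lipoamide dehydrogenase gene shared by the pyruvate and oxoglutarate complexes, had 115 at -250 bp. None of 4 pentose phosphate genes was bound (0.0 to 60.2%). Of 11 genes of sugar storage and supply 3 were (6.02 to 61.0%). They were the trehalase gene tre-1 (263 at -27 bp, shared with dad-1), the trehalose phosphate synthase gene tps-2 (112 at -807 bp) and pfkb-1.1 (98.9 at -513 bp). Of 5 genes of alcohol and side routes 1 was bound (0.505 to 71.6%). It was the malic enzyme gene men-1 (143 at -766 bp, with CACGTG near the summit). Each of these intervals includes the 11.3% of all genes, so these small groups cannot be placed above or below that share.

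At the threshold itself the members just inside were hxk-1 (93.0), idh-1 (94.8) and aco-1 (100), and those just outside were fbp-1 (86.6), pyk-2 (85.8) and enol-1 (84.6).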

How the data were processed

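Peak lists in narrowPeak layout on ce11, which has the WBcel235 sequence, were deposited: a list per replicate and a pooled list, each made with a control and with background included, and an IDR-thresholded list taken from the pooled one, per the listings deposited with each replicate. The caller, the aligner and the strain used as control were not given in the sources used here. Columns of the deposited lists include a signal value, which is a score from the authors' caller on an undefined scale, the −log10 of its q-value, and the offset of the summit from the peak start. The signal was used to describe, rank and select peaks within a list, with ties ordered by chromosome and position. The −log10 q-value was not used to rank or select. Read counts were not used, and sequencing depth is therefore not known.

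Summits were placed relative to every protein-coding transcript start of Ensembl release 115 (1-based positions), from 1000 bp upstream to 200 bp downstream. CACGTG and the other E-boxes were searched on both strands of the RefSeq WBcel235 sequence within 100 bp of a summit and over whole windows. Summits within 100 bp counted as shared between lists. A 32-base word that occurs more than once in the genome counted as repeated. Shares carry exact Clopper-Pearson intervals at 95%. No test was made of the gene list, because the members and the lists of related genes were chosen with earlier results of these data known. All members could be named, with up to 10 related genes that had a thresholded promoter summit and other genes that share a member's summit or start nearer to it. The scripts were tested on simulated peaks and motifs. Of the 35 related names listed 33 matched a protein-coding symbol. The software was matplotlib 3.10.9 with scipy 1.17.1, pandas 2.3.3 and numpy 2.4.6 under Python 3.11.15.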

Additional observations from a re-analysis of the deposited data

How the results depend on the processing

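Of 54 recomputed counts 40 stayed within 1.5 times the reported one. Peaks above the median of the thresholded list reached 11 members in all, 8 TCA cycle genes, 1 glycolytic gene and 1 gluconeogenic gene, against 5.98% of all genes. Of these 11 members 3 had CACGTG near the summit, against 17.3% of all genes reached by these peaks. All pooled peaks, background included, reached 34 members, 15 of 20 TCA cycle genes and 15 of 19 glycolytic genes, against 40.9% of all genes, and the TCA cycle then no longer stood above glycolysis. A window from 2000 bp upstream gave 5 glycolytic genes and 4 gluconeogenic genes, against 15.1% of all genes. It held CACGTG in 22 members, against 33.6% of all genes. The most upstream start alone left 1 glycolytic gene, against 10.1% of all genes, and the nearest start gave 4 gluconeogenic genes, against 12.4%. Requiring the highest peaks of both replicates, a choice made after seeing the data, left 1 gluconeogenic gene, against 8.67% of all genes. Without replicate 1 or without replicate 2 the counts ran from 19 to 21 for all members, 12 to 13 for the TCA cycle, 4 to 5 for glycolysis, stayed at 2 for gluconeogenesis, and ran from 4 to 6 for members with CACGTG near the summit. The genes called differed. In gluconeogenesis pck-2 was called both times, pyc-1 only without replicate 1 and fbp-1 only without replicate 2. In glycolysis aldo-2 and hxk-3 were called both times. Those called only without replicate 1 were hxk-1, hxk-2 and ldh-1, and only without replicate 2 enol-1 and pyk-2. The TCA cycle count without replicate 2 includes cts-1. The TCA cycle count ran from 8 to 15 over all settings. No paired analysis was possible because there is 1 group.

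The sets are small, the signal has no stated error, the depth is unknown, and genes that share a summit are counted as bound together.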
